A study of Ovis aries with 4 samples.

Results

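Axon guidance genes are the ligands and receptors that steer growing nerve fibres. The genes described here were chosen by symbol in the gene list deposited with the nuclei libraries: every symbol that starts with SEMA, PLXN, EPHA, EPHB, EFNA, EFNB, SLIT (not SLITRK), ROBO, UNC5 or NTNG, together with the netrins (NTN and a number), DCC, NRP1 and NRP2. The rule found 73 of the 26478 listed genes. They are 20 semaphorins, 9 plexins, 2 neuropilins, 8 ephrins, 14 EPH receptors, 3 SLIT genes, 4 ROBO genes, 4 netrins, 2 netrin-G genes and 5 netrin receptors, which are DCC and the UNC5 genes. A further 2 genes, UNC50 and UNC5CL, match by prefix only. UNC50 is not a guidance receptor and is kept as a member by the rule.

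The genes were measured by droplet-based RNA sequencing of frozen striatum, a deep forebrain region, from 4 sheep aged 5 years. Tissue of each pool of 2 sheep was taken through 2 preparations. Whole cells were released with papain, and nuclei were released by homogenising in a detergent buffer, per the labels' protocols. That makes 4 libraries, whole cells replicates 1 and 2 and nuclei replicates 1 and 2. The titles put sheep 1 and 2 in replicate 1 and sheep 3 and 4 in replicate 2 of each kind, while in the protocol text the second suspension of cells came from animals 2 and 3. Breed, sex and treatment are not given in the sources used here. Values are counts of unique molecular identifiers (UMIs), each marking 1 captured RNA molecule.

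Netrins act on DCC, which mostly attracts, and on UNC5 receptors, which mostly repel. SLIT proteins repel through ROBO receptors. Class 3 semaphorins are secreted and bind neuropilins, which signal through plexins, while most other semaphorins bind plexins directly. Ephrins stay on the membrane and meet EPH receptor kinases on the neighbouring cell. In the adult brain many of these genes stay active and are known for roles in synapses, in myelinating glia and in glial migration. Medium spiny neurons, the projection neurons that make up most of the neurons of the striatum, come as a D1 type and a D2 type named for their dopamine receptors.

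The libraries held 1115058 and 19241918 UMIs from whole cells and 70473292 and 51102420 UMIs from nuclei. Mitochondrial genes took 88.7% and 86.9% of the whole cells UMIs and 0.779% and 0.776% of the nuclei UMIs. A minimum of 200 genes was reached by 68 of 2162 and 269 of 32500 barcodes from whole cells, with a median of 348 and 504 UMIs per barcode. Sums per library below take all deposited barcodes. Pairs of libraries shared between 2 and 87 barcode sequences, at most 0.997% of either library's barcodes. Clustering of 16698 nuclei, done without the guidance genes, gave 18 clusters, and 6 classes with at least 50 nuclei in each library could be named by marker genes: medium spiny neuron-like (1293 and 1319 nuclei), interneuron-like (651 and 496), oligodendrocyte precursor-like (587 and 791), oligodendrocyte-like (3830 and 3901), astrocyte-like (715 and 651) and microglia-like (835 and 993). The interneuron-like class is a mixture: its cluster 14 also carried the excitatory neuron markers SLC17A7, TBR1 and EMX1. Microglia-like cluster 15 also carried astrocyte markers, and astrocyte-like cluster 12 was led by TOP2A, a gene of dividing cells. Cluster 14 held 62.0% and 78.9% of the interneuron-like UMIs, cluster 15 held 14.8% and 46.7% of the microglia-like UMIs and cluster 12 held 20.3% and 14.9% of the astrocyte-like UMIs, so class levels rest in part on them. Levels without these 3 clusters, an alternative chosen after the data were seen, are given where they change an order. Levels below are counts per 1000000 UMIs (CPM), taken over the sum of 1 class in 1 library and given for nuclei replicates 1 and 2 in that order. They depend on transcript length and capture, so they are compared between classes and not between genes.

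All 73 genes had at least 1 UMI in both nuclei libraries. In total they gave 1334859 and 925399 UMIs, which is 1.89% and 1.81% of all UMIs. A set of 4 genes, ROBO2, ROBO1, DCC and SLIT3, held 75.1% and 73.1% of those UMIs. At the other end, NTN5 and SEMA3G had 2 and 1 UMIs each.

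Levels differed among the 6 classes for most of the genes that could be tested. A filter on low counts kept 57 of the 73, and 54 of them differed in an edgeR quasi-likelihood test on class sums, adjusted over all genes. Most genes differ between brain cell classes: 83.5% of the 13142 genes tested were called in the same test, and 81.8% of those not used for clustering. The 3 tested genes that were not called were UNC50, PLXNA1 and SEMA4G. The class with the highest level was the same in both libraries for 51 of the 57, and it was interneuron-like for 15, medium spiny neuron-like for 12, oligodendrocyte-like for 9, astrocyte-like for 6, oligodendrocyte precursor-like for 5 and microglia-like for 4. Without clusters 12, 14 and 15 it was the same in both libraries for 53, of which 47 had the same class as with all clusters, and medium spiny neuron-like nuclei led with 15 genes before interneuron-like nuclei with 14. The 16 genes that were not tested were EFNA2, EFNA3, EFNB3, EPHA1, EPHA2, EPHB4, NTN3, NTN5, ROBO3, ROBO4, SEMA3B, SEMA3F, SEMA3G, SEMA6B, SEMA6C and UNC5CL. Their highest value in any class and library was that of EPHB4, at 3.64 CPM in astrocyte-like nuclei of replicate 2. The heat map of all tested genes shows these blocks side by side.

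**Figure D1:**
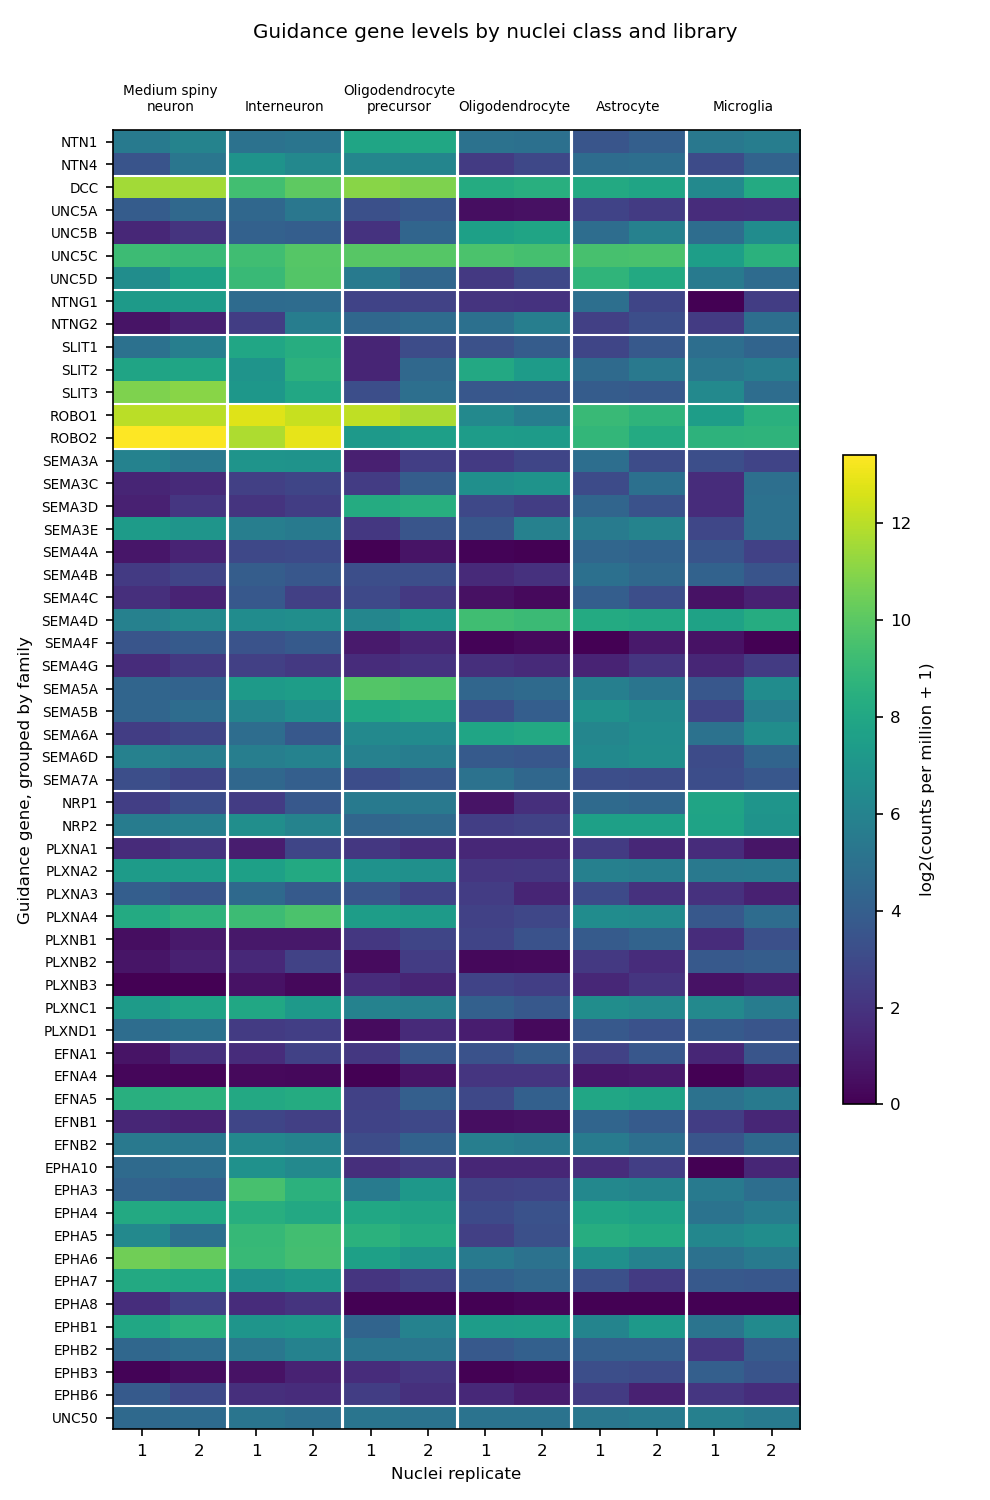
Levels of the 57 tested guidance genes (rows, grouped by family) in 6 nuclei classes and 2 nuclei libraries (columns), as log2(CPM + 1). ROBO2 is at 3426 CPM or more in both neuron classes and at most 478 CPM in the 4 glial classes, and 51 of the 57 genes are highest in the same class in both libraries.

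More of the tested genes were called higher in the 2 neuron classes than in any glial class. Against the mean of the other classes, 33 of the 57 were higher and 5 lower in interneuron-like nuclei, where 22.8% and 16.3% of all tested genes were called higher and lower. Without cluster 14 and the other mixed clusters 28 were higher, 27 of them among the 33, and 5 lower, of which 2 were among the first 5. The 5 lower became 8 with at least 500 genes per nucleus, 3 without the replicate block and 2 with each library clustered by itself. In medium spiny neuron-like nuclei 30 were higher and 15 lower, with 31.2% and 28.6% of all genes. The median log2 difference over the 57 was 1.25 in interneuron-like and 0.62 in medium spiny neuron-like nuclei, beside -0.01 and -0.02 over all genes tested. Oligodendrocyte-like nuclei stood at the other end, with 13 higher and 35 lower (25.5% and 28.2% of all genes) and a median of -1.84, beside -0.03 over all genes. Microglia-like nuclei had 7 higher and 25 lower (23.9% and 21.9%), and the 25 became 38 with the highest 8% of doublet scores removed and 34 without the mixed clusters. Astrocyte-like nuclei had 15 higher and 11 lower (20.1% and 14.6%), and oligodendrocyte precursor-like nuclei 21 higher and 15 lower (17.7% and 13.6%). The medians in microglia-like, astrocyte-like and oligodendrocyte precursor-like nuclei were -0.89, 0.06 and 0.21, beside -0.01, -0.03 and -0.06 over all genes.

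SLIT and ROBO genes come first, as repellent ligands and their receptors. SLIT3 measured 1791 and 2075 CPM in medium spiny neuron-like nuclei. Its levels were 134 and 259 CPM in interneuron-like nuclei and 79.4 CPM or less in every glial class and library. Medium spiny neuron-like nuclei lay above all the others in both libraries, with a log2 difference of 6.35 from their mean (SE 0.34, adjusted p = 2.89e-07). SLIT1 was instead highest in interneuron-like nuclei, at 248 and 327 CPM, with 30.7 and 52.9 CPM in medium spiny neuron-like nuclei and 28.2 CPM or less in glia (log2 difference 4.45, SE 0.20, adjusted p = 2.28e-07). SLIT2 had no single leading class. It measured 225 and 233 CPM in medium spiny neuron-like, 122 and 398 CPM in interneuron-like and 270.4 and 164 CPM in oligodendrocyte-like nuclei, so these ranges overlapped, and it was 1.59 and 22.0 CPM in oligodendrocyte precursor-like nuclei. The interneuron-like level of SLIT2 was 11.1 and 41.9 CPM without cluster 14, and the class was no longer called higher in it.

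The receptors of the SLIT proteins were split between cell classes. ROBO2 measured 10890.0 and 10293 CPM in medium spiny neuron-like nuclei and 3426 and 7659.5 CPM in interneuron-like nuclei, or 4592 and 3540 CPM there without cluster 14. In the 4 glial classes it ranged from 152 to 478 CPM, so neurons and glia did not overlap (medium spiny neuron-like log2 difference 4.87, SE 0.26, adjusted p = 2.7e-07). ROBO1 was high in a glial class as well: 4452 and 3365 CPM in oligodendrocyte precursor-like nuclei, beside 7038 and 4938 CPM in interneuron-like and 4117 and 4121 CPM in medium spiny neuron-like nuclei. The precursor-like and medium spiny neuron-like values of ROBO1 overlapped, and both interneuron-like values lay above them, also without cluster 14 (4628 and 5484 CPM). Oligodendrocyte-like nuclei had 79.2 and 51.1 CPM of ROBO1. In oligodendrocyte precursor-like nuclei ROBO1 was called higher than the mean of the other classes (log2 difference 2.50, SE 0.25, adjusted p = 6.08e-05) and ROBO2 lower (-2.61, SE 0.39, adjusted p = 0.000765). ROBO2 and ROBO1 are next to each other among the protein-coding genes of the RefSeq annotation of ARS-UI_Ramb_v3.0. ROBO3 and ROBO4 were too low to test.

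**Figure D2:**
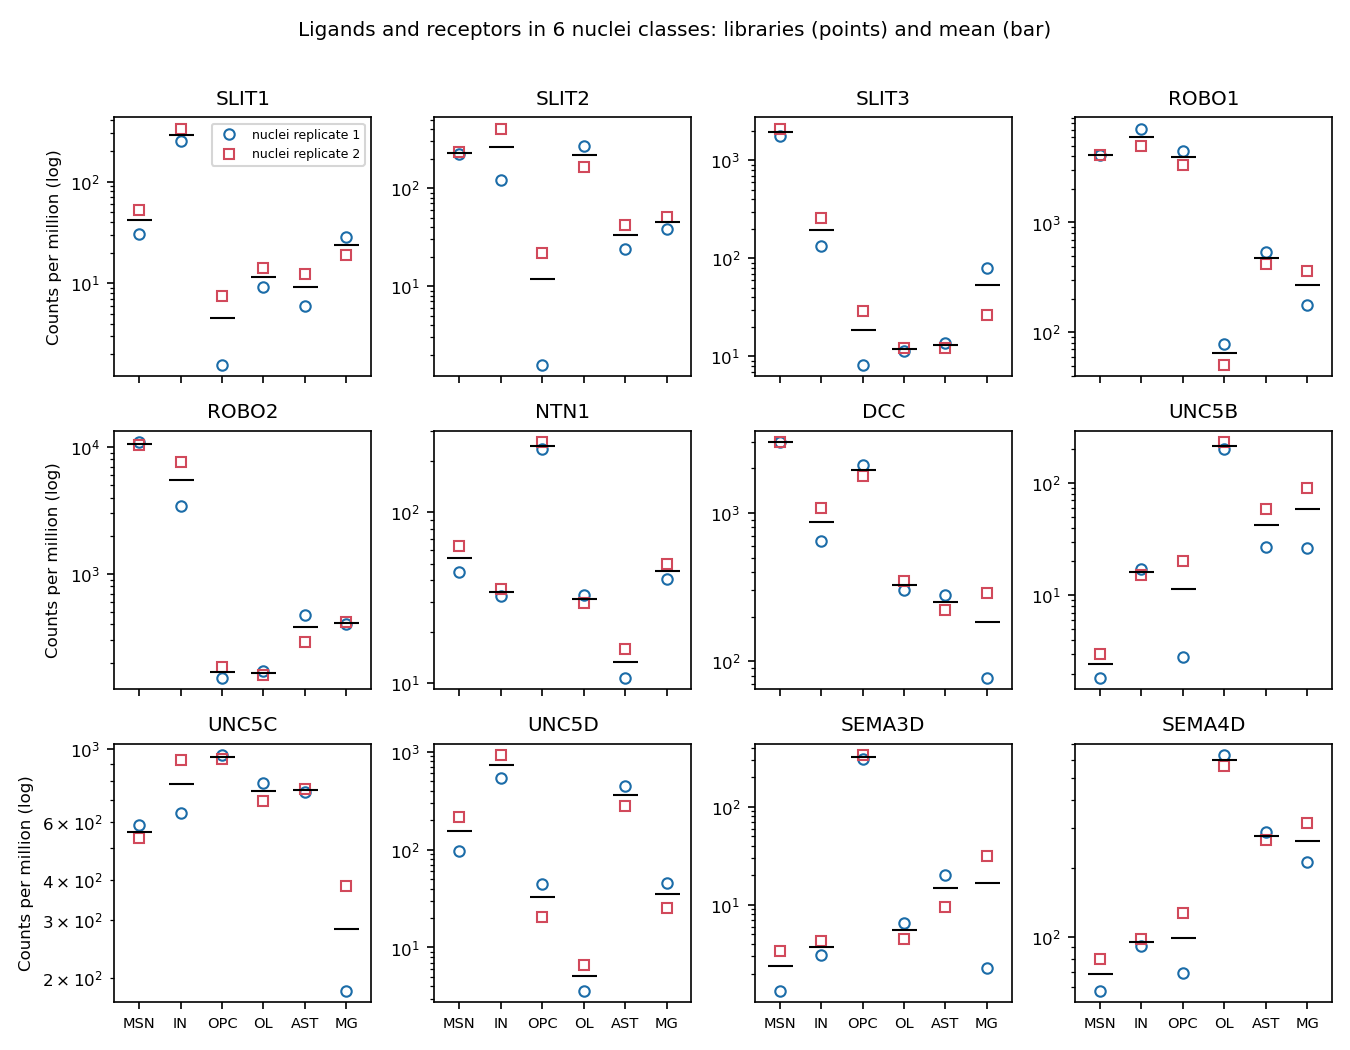
CPM on a log axis of 12 guidance genes in medium spiny neuron-like (MSN), interneuron-like (IN), oligodendrocyte precursor-like (OPC), oligodendrocyte-like (OL), astrocyte-like (AST) and microglia-like (MG) nuclei. Each point is 1 nuclei library and the bar is the mean of the 2. SLIT3 is at 1791 and 2075 CPM in MSN and at most 259 CPM elsewhere, while ROBO1 is at 3365 CPM or more in MSN, IN and OPC.

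NTN1, the founding netrin ligand, measured 234 and 257 CPM in oligodendrocyte precursor-like nuclei and between 10.8 and 63.2 CPM in every other class and library (log2 difference 3.02, SE 0.12, adjusted p = 6.35e-07). DCC, the attractive receptor, was highest in medium spiny neuron-like nuclei, at 2976 and 2982 CPM, and next in oligodendrocyte precursor-like nuclei, at 2094 and 1780.1 CPM. The DCC values of these classes did not overlap, and interneuron-like nuclei followed at 648 and 1078 CPM. In the remaining glia DCC lay between 77.7 and 349 CPM. Oligodendrocyte precursor-like nuclei held both the ligand NTN1 and the receptor DCC above the mean of the other classes. Medium spiny neuron-like nuclei were also called higher in both genes.

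The 4 UNC5 receptors had 4 different patterns. UNC5B was highest in oligodendrocyte-like nuclei, at 199 and 229 CPM, against 1.86 and 3.01 CPM in medium spiny neuron-like nuclei (log2 difference 3.95, SE 0.27, adjusted p = 2.44e-06). UNC5C was present in every class, from 183 to 958 CPM, and oligodendrocyte precursor-like nuclei at 958 and 931 CPM exceeded the mean of the others by only 0.78 (log2, SE 0.24, adjusted p = 0.0305). That call was lost when each nuclei library was clustered by itself (log2 difference 0.81, adjusted p = 0.128). UNC5D was highest in interneuron-like nuclei, at 543 and 916 CPM, and next in astrocyte-like nuclei, at 444 and 278 CPM (interneuron-like log2 difference 3.90, SE 0.33, adjusted p = 1.16e-05). Oligodendrocyte-like nuclei were called lower in UNC5D, by a log2 difference of -4.66 (SE 0.57). UNC5A was low everywhere, at most 39.5 CPM, and highest in interneuron-like nuclei (log2 difference 2.95, SE 0.20, adjusted p = 2.78e-06), but highest in medium spiny neuron-like nuclei without cluster 14, when interneuron-like nuclei had 11.9 and 16.6 CPM of UNC5A.

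Netrin-G proteins sit on axons through a lipid anchor and meet LRRC4C and LRRC4 on the partner neuron. NTNG1 measured 156 and 161 CPM in medium spiny neuron-like nuclei and 28.6 CPM or less elsewhere (log2 difference 4.86, SE 0.31, adjusted p = 7.62e-07). NTNG2 was highest in oligodendrocyte-like nuclei in replicate 1, at 29.8 CPM, and again in replicate 2, at 52.3 CPM, where interneuron-like nuclei were close at 50.0 CPM after 4.51 CPM in replicate 1. Without cluster 14 the interneuron-like values of NTNG2 were 2.96 and 4.88 CPM. Of the partners, LRRC4C was at 24.2 and 16.7 CPM in medium spiny neuron-like and at 27.0 and 20.1 CPM in oligodendrocyte precursor-like nuclei, which overlapped. LRRC4 was called higher in precursor-like nuclei (log2 difference 1.98, SE 0.21) and in interneuron-like nuclei (1.78, SE 0.20).

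Of the 20 semaphorins 15 were tested, and 8 were called higher and 3 lower in interneuron-like, 6 and 3 in oligodendrocyte precursor-like, 5 and 1 in astrocyte-like, 4 and 8 in oligodendrocyte-like, 4 and 6 in medium spiny neuron-like and 1 and 5 in microglia-like nuclei. Over all tested genes the shares by class, given above, ran from 17.7% to 31.2% for higher and from 13.6% to 28.6% for lower. SEMA3D, a secreted class 3 semaphorin, measured 307 and 334 CPM in oligodendrocyte precursor-like nuclei and at most 31.2 CPM elsewhere (log2 difference 5.69, SE 0.37, adjusted p = 4.23e-06). SEMA5A, at 901 and 794 CPM, and SEMA5B, at 249 and 305 CPM, were highest in the same class (log2 differences 4.37, SE 0.35, and 3.04, SE 0.32). In every other class and library SEMA5A was at most 175 CPM and SEMA5B at most 107 CPM, so neither overlapped.

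Oligodendrocyte-like nuclei had a different set of semaphorins. SEMA4D, a membrane semaphorin that binds plexin-B1, measured 626 and 564 CPM there, and the next class, microglia-like nuclei in replicate 2, reached 316 CPM (log2 difference 2.26, SE 0.16, adjusted p = 2.87e-06). SEMA6A, which binds A-type plexins, measured 235 and 271 CPM against at most 95.7 CPM elsewhere (log2 difference 3.03, SE 0.25, adjusted p = 6.55e-06). SEMA3C, chosen after its values were seen, measured 99.6 and 116 CPM against at most 29.5 CPM. The 3 semaphorins led by precursor-like nuclei stood at 24.2 CPM or less in oligodendrocyte-like nuclei, where SEMA5A and SEMA5B were called lower than the mean of the other classes and SEMA3D was not called (-1.27, SE 0.56, adjusted p = 0.0807). SEMA4D was called lower in precursor-like nuclei, while SEMA6A was called higher there as well. In neurons SEMA3A was highest in interneuron-like nuclei, at 120.2 and 118 CPM, and SEMA3E in medium spiny neuron-like nuclei, at 164 and 128 CPM.

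Among the semaphorin receptors, the neuropilin NRP1 measured 229 and 126 CPM in microglia-like nuclei and at most 43.8 CPM elsewhere (log2 difference 3.88, SE 0.30, adjusted p = 5.93e-06). NRP2 was 219 and 117 CPM in microglia-like and 194 and 196 CPM in astrocyte-like nuclei, which overlapped, and 4.53 and 5.15 CPM in oligodendrocyte-like nuclei. Without clusters 12, 14 and 15 the NRP2 values were 210.1 and 134 CPM in microglia-like and 234 and 219 CPM in astrocyte-like nuclei and no longer overlapped. Interneuron-like nuclei, at 96.9 and 62.5 CPM of NRP2 with all clusters, then had 228 and 135 CPM, which overlapped with both. Without cluster 15 the values of NRP1 in microglia-like nuclei were 259 and 187 CPM. Plexin-A4, a partner of the neuropilins, was highest in interneuron-like nuclei (583 and 769.7 CPM, log2 difference 3.61, SE 0.17, adjusted p = 2.54e-07), followed by medium spiny neuron-like nuclei at 296 and 413 CPM. Without cluster 14 the interneuron-like values of PLXNA4 were 285 and 597 CPM and overlapped with those. PLXND1, the receptor of SEMA3E, was highest in medium spiny neuron-like nuclei (26.3 and 31.6 CPM, log2 difference 3.47, SE 0.23, adjusted p = 1.16e-06), the class that was also highest in SEMA3E. All A-type plexins but PLXNA1 were called lower in oligodendrocyte-like nuclei, where PLXNA2 was at 3.32 and 3.56 CPM beside 41.7 CPM or more in every other class and library. PLXNB1, the receptor of SEMA4D, was highest in astrocyte-like nuclei at 13.4 and 18.2 CPM, and at 5.74 and 9.37 CPM it was also called higher in oligodendrocyte-like nuclei (log2 difference 1.45, SE 0.24, adjusted p = 0.000626).

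No gene with at least 100 CPM was highest in astrocyte-like nuclei in both libraries, except NRP2 when the mixed clusters were left out. The 6 tested genes that were are SEMA4A, SEMA4B, SEMA4C, SEMA6D, EFNB1 and PLXNB1. Of these, chosen for mention after their values were seen, SEMA4A measured 20.8 and 17.7 CPM (log2 difference 3.96, SE 0.40), EFNB1, a transmembrane ephrin, 19.7 and 13.2 CPM (2.58, SE 0.26) and SEMA4B 29.7 and 21.8 CPM (1.66, SE 0.23).

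Of the 8 ephrins 5 were tested, and 3 were called higher and 0 lower in interneuron-like, 3 and 2 in oligodendrocyte-like, 2 and 2 in medium spiny neuron-like, 2 and 0 in astrocyte-like, 1 and 2 in oligodendrocyte precursor-like and 0 and 2 in microglia-like nuclei, numbers too small to set against the shares of all genes. EFNA5, a lipid-anchored ephrin, measured 352 and 383 CPM in medium spiny neuron-like, 273 and 304 CPM in interneuron-like and 244 and 208 CPM in astrocyte-like nuclei, in this order without overlap, and at most 43.4 CPM in the other glia (medium spiny neuron-like log2 difference 3.33, SE 0.21, adjusted p = 8.76e-07). Without the mixed clusters the order of the latter classes turned for EFNA5, with 119 and 177 CPM in interneuron-like and 305 and 237 CPM in astrocyte-like nuclei. Of the 14 EPH receptors 11 were tested, and 8 were called higher and 0 lower in interneuron-like, 8 and 2 in medium spiny neuron-like, 4 and 2 in oligodendrocyte precursor-like, 3 and 3 in astrocyte-like, 1 and 6 in microglia-like and 1 and 7 in oligodendrocyte-like nuclei. Over all tested genes 22.8% were called higher and 16.3% lower in interneuron-like, 31.2% and 28.6% in medium spiny neuron-like and 25.5% and 28.2% in oligodendrocyte-like nuclei, and the other shares are given above. EPHA6 (1474 and 1230.3 CPM) and EPHA7 (282 and 252 CPM) were highest in medium spiny neuron-like nuclei, with log2 differences of 4.10 (SE 0.21) and 4.55 (SE 0.16). EPHA3 differed between the neuron classes: 724 and 389.9 CPM in interneuron-like and 18.5 and 16.5 CPM in medium spiny neuron-like nuclei, the latter called lower than the mean of the others, a call that was lost without the mixed clusters. EPHA5 measured 509 and 651 CPM against 77.7 and 29.8 CPM, and medium spiny neuron-like nuclei were not called lower in it (adjusted p = 0.0569), but were without the mixed clusters. The remaining receptors described here were chosen after their values were seen. EPHA10, a receptor without kinase activity, was at 108 and 77.3 CPM in interneuron-like and 24.1 and 27.5 CPM in medium spiny neuron-like nuclei, with at most 4.54 CPM in glia (interneuron-like log2 difference 4.77, SE 0.21, adjusted p = 2.03e-07). EPHA4, which binds ephrins of both types, was at 205 CPM or more in all classes but oligodendrocyte-like nuclei (7.05 and 9.37 CPM) and microglia-like nuclei (33.2 and 48.9 CPM). EPHB3 was highest in microglia-like nuclei, at 15.8 and 10.2 CPM (3.58, SE 0.42, adjusted p = 9e-05). The EPH receptor called higher in oligodendrocyte-like nuclei was EPHB1. Its level there was 68.3% and 48.3% of that in medium spiny neuron-like nuclei, where it was highest and also called higher.

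Levels also varied among the neuronal clusters, given here without a test. Cluster 2 (D1-like by TAC1 and EBF1) and cluster 3 (D2-like by DRD2 and PENK) had ROBO2 at 12666 and 11478 CPM and 10396 and 10141 CPM. Cluster 8, medium spiny neuron-like nuclei led by SLC26A5 and FOXP2, had 1061 and 937 CPM of ROBO2 and 426 and 681 CPM of DCC, below clusters 2 and 3 in both genes and both libraries. It had 717 and 693 CPM of NTNG1, where clusters 2 and 3 had at most 146 CPM, and 2382 and 2590.2 CPM of EPHA6. Among interneuron-like nuclei, cluster 6 (SST, NPY and NOS1) was high in ROBO1, at 9851 and 8401 CPM, and in UNC5D, at 1117 and 1828 CPM. Cluster 9 (GAD1, GAD2 and ADARB2) was low in ROBO1, at 1585 and 1234 CPM, and high in SLIT1 (682 and 506 CPM), EPHA3 (1401 and 1102 CPM) and NRP2 (328 and 252 CPM). In the mixed cluster 14 ROBO2 was 2712 CPM in replicate 1 and 8761 CPM in replicate 2. Leaving out clusters 12, 14 and 15 from the class fits, chosen after the data were seen, left every gene named by the class rule called in its class.

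**Figure D3:**
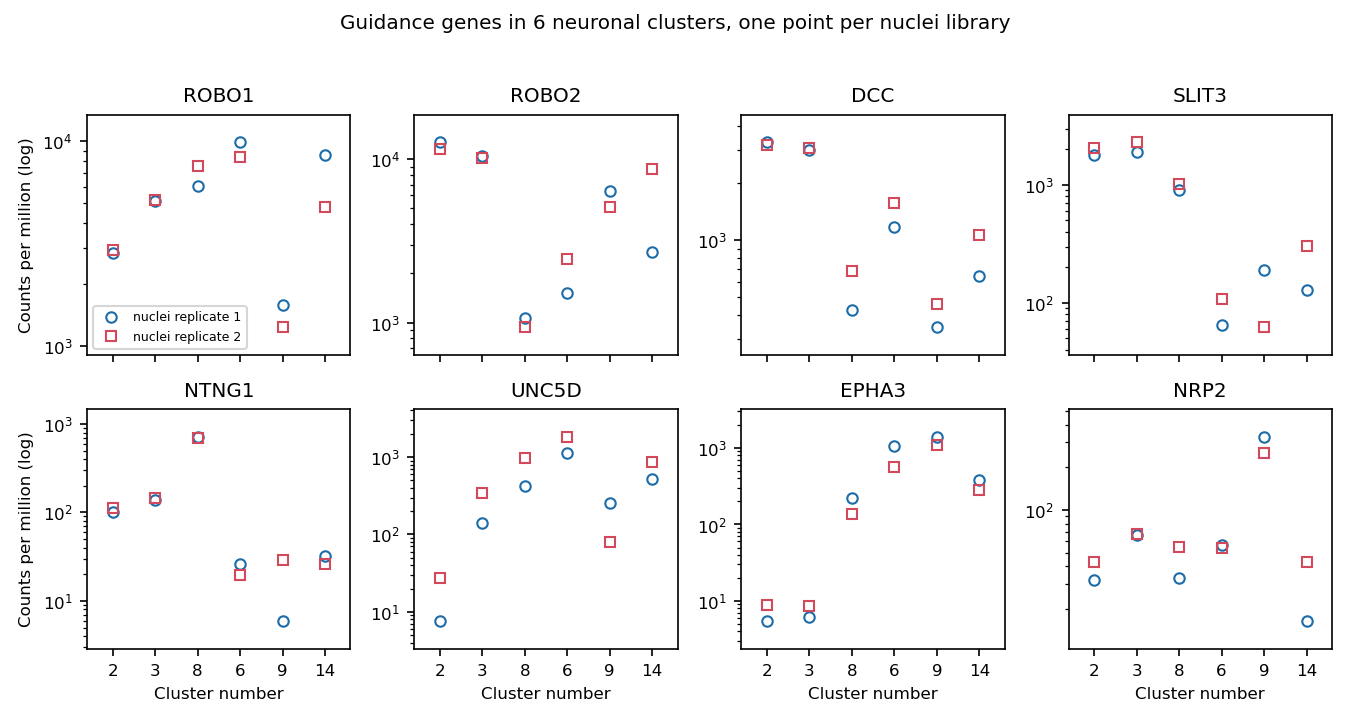
CPM on a log axis of 8 guidance genes in 6 neuronal clusters, 1 point per nuclei library. Clusters 2, 3 and 8 are medium spiny neuron-like and clusters 6, 9 and 14 interneuron-like. Cluster 8 has 1061 and 937 CPM of ROBO2 where clusters 2 and 3 have 10141 CPM or more, and 717 and 693 CPM of NTNG1 where the others shown have at most 146.

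D1-like and D2-like medium spiny neuron nuclei, separated within each library (508 and 506 D1-like, 560 and 347 D2-like, with 225 and 466 of neither type left out), differed in 1 guidance gene. UNC5D measured 8.47 and 12.6 CPM in D1-like and 149 and 329 CPM in D2-like nuclei, from 156 and 107 UMIs against 2830 and 1925. The groups did not overlap, and D2-like nuclei were 17.6-fold and 26.1-fold above D1-like nuclei in the 2 libraries. The left-out nuclei of neither type had UNC5D at 186 and 282 CPM, so its level was not particular to D2-like nuclei. They held 6647113 and 14853157 UMIs, beside 18425808 and 8501482 in D1-like and 19034884 and 5853004 in D2-like nuclei. The fitted log2 difference of D1-like from D2-like nuclei was -4.47 (SE 0.52, adjusted p = 0.00148). Of the 63 guidance genes tested this 1 was called, and 5 had an unadjusted p under 0.05, while 0.271% of the 14393 genes tested were called (0.0973% higher and 0.174% lower in D1-like nuclei). Taking the types from the joint clustering gave -3.86 (adjusted p = 0.022), an alternative chosen after the data were seen.

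The next genes did not pass. UNC5C measured 393 and 372 CPM in D1-like and 784 and 777 CPM in D2-like nuclei, a log2 difference of -1.01 (SE 0.32, adjusted p = 0.912). NRP2 measured 32.4 and 38.7 CPM in D1-like and 65.8 and 65.9 CPM in D2-like nuclei (-0.89, SE 0.24, adjusted p = 0.52). ROBO1 measured 2903 and 2519 CPM against 5044 and 5005 CPM (-0.88, SE 0.37, adjusted p = 1). Neither gene's groups overlapped. PLXNA4 measured 211 and 302 CPM against 336 and 452 CPM (-0.62, SE 0.24, adjusted p = 1). In mice SEMA3E and PLXND1 are known for a role at synapses onto D1-type neurons. Here PLXND1 measured 27.4 and 28.2 CPM in D1-like and 27.4 and 32.1 CPM in D2-like nuclei, a log2 difference of -0.07 (SE 0.30). SEMA3E differed by 0.17 (SE 0.56). These last genes were picked after their values were seen, and differences of the size of these errors were not detectable.

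**Figure D4:**
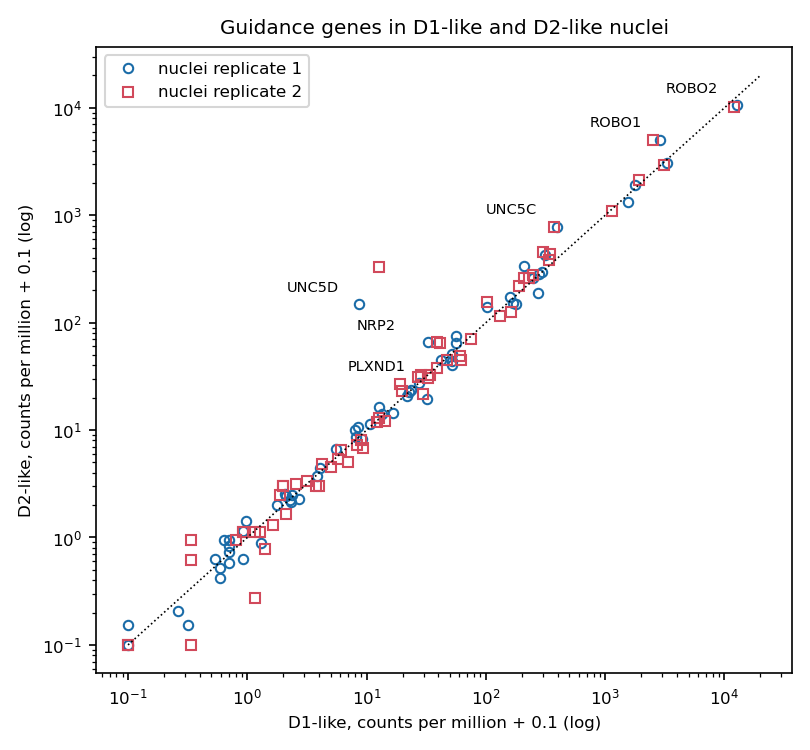
CPM + 0.1 of each guidance gene in D1-like (horizontal) and D2-like (vertical) nuclei on log axes, 1 point per library, with the line of equal level dotted. UNC5D lies farthest above the line, at 149 and 329 CPM in D2-like nuclei, and UNC5C, ROBO1 and NRP2 lie nearer to it.

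RNA of other classes was also counted in each class. The 4 medium spiny neuron markers PDE10A, DRD2, RGS9 and PPP1R1B stood between 1.8% and 20.3% of their medium spiny neuron-like level in oligodendrocyte-like nuclei of replicate 1 and between 4.5% and 13.6% in replicate 2 (median 2201 and 1598 UMIs per nucleus, against 15189 to 32444.5 in D1-like and D2-like nuclei). ROBO2 and SLIT3 in oligodendrocyte-like nuclei were 1.56% and 1.56%, and 0.635% and 0.585%, of their highest class, below all 4 markers in both libraries. The lowest of these markers, DRD2, was at only 0.302 and 1.06 CPM in oligodendrocyte-like nuclei, near the floor. The margin of ROBO2 below it in replicate 1 is therefore not firm. These 4 are a choice from the 17 medium spiny neuron markers with an identifier. DCC there was 10.2% and 11.7%, within the range of the markers. The part of carried-over RNA in these values was not tested. Oligodendrocyte markers in microglia-like nuclei were between 8.1% and 10.8% of their own level in replicate 1 and between 27.8% and 34.0% in replicate 2, where the doublet caller did not work. UNC5B, SEMA6A and SEMA4D in microglia-like nuclei were 13.3%, 13.6% and 34.0% of their oligodendrocyte-like level in replicate 1 and 39.5%, 35.3% and 56.0% in replicate 2. The part of those markers in the microglia-like values was not tested.

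The wider pathway was described with a list of 54 genes that act with these ligands and receptors, of which 52 have an identifier. All 50 that were tested differed among classes, beside 83.5% of all tested genes. Of the 50, 32 were higher and 6 lower in interneuron-like nuclei (22.8% and 16.3% of all tested genes), 29 and 9 in medium spiny neuron-like (31.2% and 28.6%), 17 and 11 in oligodendrocyte precursor-like (17.7% and 13.6%), 10 and 14 in astrocyte-like (20.1% and 14.6%), 11 and 32 in microglia-like (23.9% and 21.9%) and 11 and 28 in oligodendrocyte-like nuclei (25.5% and 28.2%). The 8 with the largest difference above the mean of the other classes included MICAL1, an enzyme that takes actin apart after semaphorin signals and was highest in microglia-like nuclei (62.5 and 43.8 CPM, log2 difference 4.35, SE 0.18), and NGEF, an ephrin-receptor exchange factor (medium spiny neuron-like, 124 and 130.1 CPM, 3.68, SE 0.12). The adhesion molecules NRCAM (3.52, SE 0.28) and DSCAM (3.33, SE 0.19), which act with neuropilins and netrins, were highest in oligodendrocyte precursor-like nuclei. The exchange factor TIAM1 (3.63, SE 0.16), the ephrin adaptor GRIP1 (3.02, SE 0.14) and the UNC5 ligand FLRT2 (3.27, SE 0.42) were highest in interneuron-like nuclei, FLRT2 at only 9.29 and 4.32 CPM. ABLIM1, an actin-binding protein, was highest in astrocyte-like nuclei (3.03, SE 0.25).

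Whole cells gave few guidance UMIs. The libraries had 128 and 2621, and 39 and 59 of the 73 genes had at least 1. As a share of non-mitochondrial UMIs that is 0.102% and 0.104%, against 1.91% and 1.83% in nuclei. ROBO2, ROBO1, DCC and SLIT3 together took 10.2% and 21.2% of the guidance UMIs from whole cells. The gene with the most UMIs was PLXNC1, with 2 and 262, followed by SEMA4D with 36 and 187, ROBO1 with 4 and 206 and ROBO2 with 5 and 202.

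Of 65 genes tested between the kinds of library, 37 were higher in nuclei and 7 lower, beside 29.8% and 22.4% of all 15781 genes. In such sums over a library, fewer cells of a type and less RNA per cell cannot be told apart. Markers of cell classes moved as well. Per 1000000 non-mitochondrial UMIs, the 17 medium spiny neuron markers summed to 468 and 1552 in whole cells (11 and 17 of them with a UMI) and to 5747 and 5055 in nuclei. The 11 oligodendrocyte precursor markers summed to 595 and 327 in whole cells (6 and 10 with a UMI) and to 2511 and 2651 in nuclei. Other lists went the opposite way without overlap. The 10 astrocyte markers summed to 1302 and 2142 in whole cells and to 1038 and 1127 in nuclei. For the 13 microglia markers the sums were 381 and 477 in whole cells and 168 and 214 in nuclei. The 15 interneuron markers (508 and 823 against 438 and 539) and the 6 markers of neurons of any kind (1421 and 2471 against 1699.7 and 1758) overlapped between the kinds. The part of these markers in the differences of the guidance genes was not tested. The median log2 difference of the 65 was 2.79, or 2.27 with the 3 genes at 0 in both whole cells libraries set to their lower bound, beside 0.61 over all genes. Scaled to non-mitochondrial UMIs, ROBO2 measured 7531 and 6857 CPM in nuclei and 39.7 and 80.4 CPM in whole cells (log2 difference 6.70, SE 0.67, adjusted p = 1.4e-09). By pool the log2 difference of ROBO2 was 8.03 for sheep 1 and 2, from 5 whole cells UMIs, and 6.12 for sheep 3 and 4, from 202. DCC had 0 and 70 UMIs from whole cells, against 152737 and 103304 from nuclei, and differed by 6.47 (SE 0.71, adjusted p = 7.58e-09). EFNA5 had 0 and 3 against 18375 and 13684 UMIs (7.71, SE 0.80). EFNB1 had no UMI in whole cells and was at least 2.41-fold higher in nuclei as a share of non-mitochondrial UMIs, taking 3 counts over the group as the limit of a count of 0.

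The genes with the most UMIs from whole cells also included genes with smaller differences. EPHA4, with 5 and 190 UMIs from whole cells, was higher in nuclei by 1.70 (SE 0.50, adjusted p = 0.00491), a call that was lost without nuclei replicate 1 (1.38, adjusted p = 0.109), and without whole cells replicate 2 the difference was 2.86. PLXNC1, a plexin that binds SEMA7A, differed by 0.81 (adjusted p = 0.183), SEMA3E by 0.85 (adjusted p = 0.176) and PLXNA2 by 0.95 (adjusted p = 0.0819), none of which passed. SEMA4D differed by 0.30 (adjusted p = 0.634) and UNC50 by -0.76 (adjusted p = 0.123), and these did not pass either. These values depended on single whole cells libraries. For PLXNC1 the difference was 3.56 without whole cells replicate 2 (adjusted p = 1.32e-06), resting on 2 UMIs, and 0.36 without replicate 1. Without whole cells replicate 1, SEMA4D (1.12), PLXNA2 (1.14) and UNC50 (-0.94) were called, and SEMA3E, which had 0 UMIs in that library, was at 0.43 and not called.

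The 7 higher in whole cells were SEMA4C, EPHB6, PLXNB2, PLXNB1, SEMA6B, PLXNA3 and PLXNA1, of which all but EPHB6 and PLXNA3 are named after their values were seen. SEMA4C, with 2 and 63 UMIs from whole cells against 248 and 106 from nuclei, fell by 3.14 on the log2 scale in nuclei (SE 0.51, adjusted p = 5.44e-06), and EPHB6, a kinase-dead EPH receptor, by 2.77 (SE 0.45). The size differed between the pools, at -1.70 for sheep 1 and 2 and -3.88 for sheep 3 and 4 in SEMA4C and at -1.59 and -3.68 in EPHB6. Without whole cells replicate 2 SEMA4C was no longer called (-2.07, adjusted p = 0.263), while EPHB6 was (-2.05, adjusted p = 0.0446). The others lay between -2.08 and -1.66. Scaling by library size alone shifted the median of all genes by 3.05 (log2), to 3.66. Under it 57 of the guidance genes were higher in nuclei and 0 lower, and the share of higher among all called genes went from 57.0% to 96.2%. The 7 genes still lay below the median of all genes there, between -0.05 for SEMA4C and 1.43 for PLXNA1. With mitochondrial genes left out and library size alone, a setting chosen after the data were seen, 38 were higher and 7 lower, beside 5121 higher and 3363 lower among all genes (60.4% higher of those called). With the animal pool as a block 2 were called lower in nuclei, without whole cells replicate 2 also 2, and without nuclei replicate 1 there were 4. The version of the counting program changed with the kind of library, and these cannot be told apart.

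**Figure D5:**
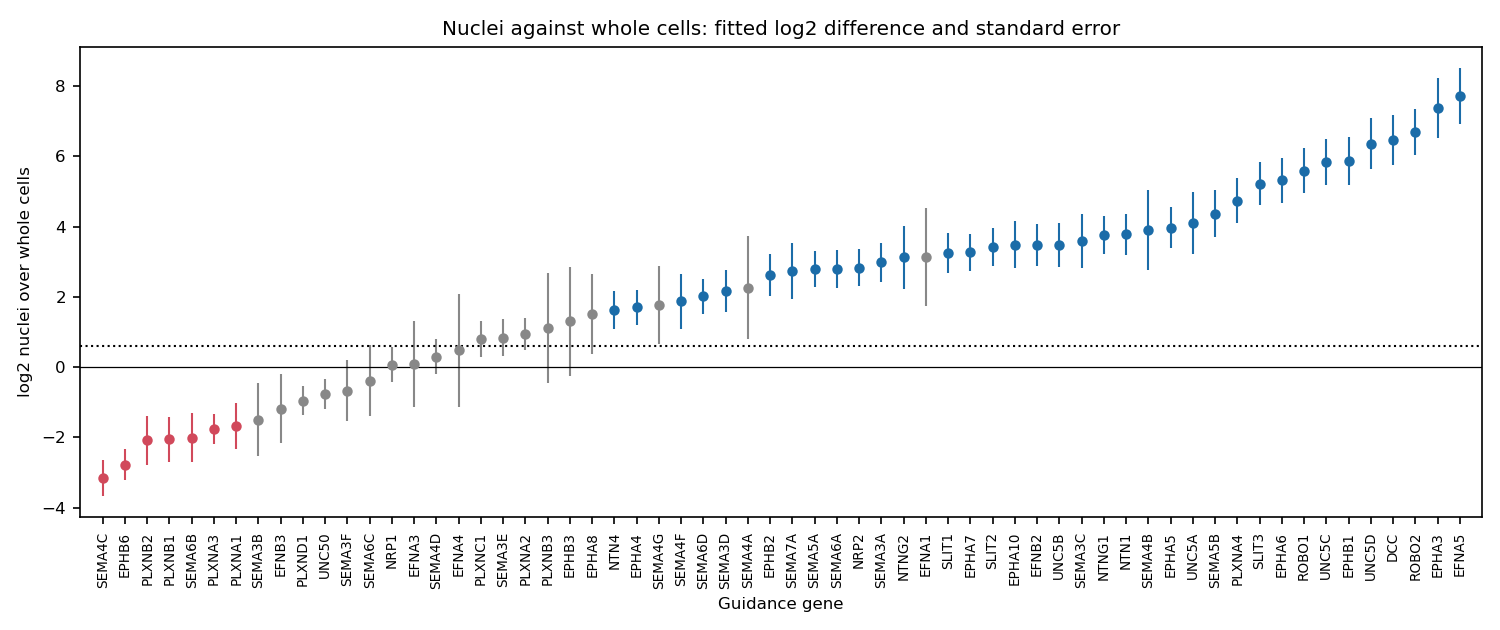
Fitted log2 difference of nuclei from whole cells with its standard error for tested guidance genes with a UMI in whole cells, in rising order. Blue genes were called higher in nuclei, red genes higher in whole cells, grey genes not called, and the dotted line is the median of all genes at 0.61.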

How the data were processed

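The authors deposited 1 matrix of raw UMI counts per library. Per the file headers the whole cells counts came from Cell Ranger 6.0.1 and the nuclei counts from Cell Ranger 7.0.0. The submitters' processing notes also list Cell Ranger 2.1.1 and STAR 2.7.2a. Genome build, annotation and the counting of introns are not given in the sources used here, so no coordinates are printed. All 73 symbols matched the RefSeq gene table, which was used for gene order only. The members and gene lists were chosen with earlier results of these data known.

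Nuclei were kept from 200 genes upward and up to 5% mitochondrial UMIs, and clustered with scanpy 1.11.5 (2000 variable genes, 30 components, 15 neighbours, Leiden resolution 0.5), leaving out members and pathway genes. Scrublet called 390 doublets (4.48%) in nuclei replicate 1 and 0 in replicate 2, so it did not work there. Clusters were named by the largest number of raised markers (2-fold over the other clusters' mean, in 5% of nuclei, 3 needed), thresholds set after the data were seen. DRD1 has no identifier of that name. Medium spiny neuron-like nuclei were reclustered within each library (10 components, resolution 0.1, both set after the data were seen) for the D1 and D2 types. Counts summed per class and library, or per library, were tested with edgeR 4.0.16 in R 4.3.3 (quasi-likelihood, TMM, filterByExpr, Benjamini-Hochberg at 0.05 over all genes), with the library as a block between classes. Fits were tested on simulated data with known changes in a gene profile shared by all groups. That setting lacks the difference in mitochondrial share between whole cells and nuclei, so it does not test the fits under it. Each group has 2 libraries, each a pool of 2 sheep, so p-values do not measure the spread between animals. Between the kinds of library they measure only the spread between libraries of a kind. Between classes, and between D1-like and D2-like nuclei, they measure the spread left after the library block, shared over all class sums. A class gene was named if called, highest in the same class in both libraries and at least 100 CPM there, taking 6 per class; known ligand and receptor pairs, up to 10 genes with at least 10 whole cells UMIs and 8 pathway genes were added. Alternatives were DESeq2 1.42.0, other scalings, filters, clusterings and left-out libraries. Over 1791 genes, deviations of same-pool libraries had a correlation of -0.05.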

Additional observations from a re-analysis of the deposited data

Results flagged for a closer look

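SEMA4D and UNC50 moved in opposite directions in the animal pools, and the difference was not tested. SEMA4D in nuclei over whole cells was -0.32 (log2) for sheep 1 and 2, from 36 whole cells UMIs, and 0.98 for sheep 3 and 4, from 187. UNC50 was 0.69 for sheep 1 and 2, from 3 whole cells UMIs, and -1.10 for sheep 3 and 4, from 129.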

How the results depend on the processing

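The 10 counts that moved by over 1.5 times are these; the cause was not tested. Guidance genes higher in nuclei went from 37 to 57 by library size alone. With 1 library left out they ranged from 27 to 41, which is within 1.5 times and not among the 10. Those higher in whole cells went from 7 to 2 with the replicate block, to 3 with DESeq2 and to 0 by library size alone, and ranged from 2 to 9 with 1 library left out. Those lower in interneuron-like nuclei went from 5 to 3 without the replicate block, to 8 with at least 500 genes per nucleus and to 2 with each library clustered by itself. Those lower in microglia-like nuclei went from 25 to 38 with the highest 8% of doublet scores removed, chosen after the data were seen. No paired numbers were crossed: same-pool deviations had a correlation of -0.05. The other 168 alternative counts stayed within 1.5 times, the D1 against D2 count at 1 in all, also without the replicate block. By library size alone, which moves all genes alike by 3.05 to a median of 3.66, nuclei minus whole cells was 2.29 for UNC50, 0.27 for EPHB6, 1.31 for PLXNA3, 1.12 for SEMA6B, 0.99 for PLXNB1, 1.03 for PLXNB2, 1.43 for PLXNA1 and 2.11 for PLXND1, all below that median; with 1 library left out SEMA6B ranged from -2.25 to 9.20, the latter a fitted value against 0 UMIs in the whole cells library that remains without replicate 2 (adjusted p = 0.698), which is no bound and shows no change of direction. Types from joint clustering at resolution 1.0 gave no value, since the clusters named D1-like and D2-like there held 5 and 2 nuclei of replicate 1. Leaving out a nuclei library left 1 sum per class and no test. With 128 guidance UMIs, whole cells replicate 1 limits every comparison between kinds.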

Other observations

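Clusters outside the tested classes held a few guidance genes at levels not seen in those classes, given as values without a test and chosen after they were seen. Unnamed cluster 16 (31 and 23 nuclei), with endothelial, mural and fibroblast markers, had ROBO4, a ROBO receptor of blood vessels, at 131 and 34.9 CPM from 8 and 1 UMIs, while ROBO4 was at most 0.635 CPM in the 6 tested classes. SEMA7A, a lipid-anchored semaphorin, was at 262 and 69.9 CPM in that cluster. Unnamed cluster 7, with the excitatory neuron markers SLC17A6 and TBR1, came almost wholly from nuclei replicate 1 (174 and 3 nuclei). Its replicate 1 nuclei had EPHA3 at 4038 CPM and SEMA3C at 1035 CPM.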
